A study of Mus musculus with 12 samples.

Results

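The tripartite motif (TRIM) family was represented by 66 of the 23997 genes listed, every gene whose symbol is Trim followed by a digit, and 33 of these 66 reached 1 FPKM (a fragment count scaled for transcript length and library size) in at least 3 libraries and were tested. They were measured by RNA-seq in bone marrow-derived macrophages (BMDMs) of C57BL/6 male mice aged 8 to 10 weeks, 3 libraries for each of 4 groups. WT and Pim1-/- BMDMs were either left untreated or given lipopolysaccharide (LPS), the bacterial ligand of TLR4, at 100 ng/ml for 4 h. The cells of all 4 groups had been differentiated for 7 days in 10 ng/ml recombinant human M-CSF, and the Pim1-/- mice carried a CRISPR deletion of Pim1 exons I to V. The comparisons asked how the kinase Pim1 bears on gene expression before and after TLR4 stimulation. No source used here says whether the libraries of a group came from separate mice, so the p-values measure only the spread between these libraries.

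TRIM proteins share a RING domain, B-box zinc fingers and a coiled coil, and most act as E3 ubiquitin ligases whose C-terminal domain, often PRY-SPRY, selects the target. Many members are induced by interferon and restrict viruses or tune the sensors and adaptors that drive type I interferon, while the TIF1 members act on chromatin and others on microtubules, membranes or protein turnover. In macrophages the family is best known for these antiviral and TLR-regulating members.

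The libraries held about 18100000 to 24300000 fragments in genes, an estimate from the spacing of low values, and replicates correlated at r = 0.996 to 0.998 over the tested genes. All 9 macrophage markers listed in the files reached 10 FPKM in at least 1 library. None of 29 markers of other cell types did so in any library (5 reached 1 FPKM, and 5 were listed at 0 throughout). In Pim1-/- BMDMs Mertk averaged 4.92 FPKM untreated and 4.75 FPKM after LPS, and Fcgr1 averaged 8.43 FPKM untreated. The other macrophage markers stayed above 10 FPKM in every library. The summed level of the macrophage markers was lower in Pim1-/- libraries, at 14411 to 15330 FPKM against 27943 to 29994 untreated and 15948 to 17813 against 30856 to 31355 after LPS. Most of this sum was Lyz2, at a mean of 26302 FPKM in untreated WT and 13297 in untreated Pim1-/- BMDMs, while Csf1r was at 764 and 254 FPKM, Cd68 at 1161 and 956 FPKM and Cd14 at 167.5 and 160.3 FPKM. The part of this in the results for Trim genes was not tested. In such bulk samples, fewer cells of a type and less RNA per cell cannot be told apart. Pim1 itself averaged 22.9 FPKM in untreated WT and 8.74 in untreated Pim1-/- BMDMs, and 645 and 219 FPKM after LPS, so that 38.1% and 33.9% of the WT level remained over the whole gene. The deposited values summed to 452511 to 489710 FPKM in untreated libraries and 713307 to 849323 after LPS, so each LPS comparison was also made with the libraries brought to an equal total.

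Of the 33 Trim genes that were not tested, 8 were listed at 0 in all 12 libraries, namely Trim31, Trim40, Trim42, Trim50, Trim52, Trim54, Trim60 and Trim61. A further 13 stayed under 0.1 FPKM, among them Trim38, whose highest value was 0.0704 FPKM, the brain-enriched Trim9 and the muscle ligase Trim63. The remaining 12 peaked at 0.1 FPKM or more, led by Trim45 at 0.905 FPKM, Trim46 at 0.778 FPKM and Trim7 at 0.406 FPKM. Trim45 was thus the gene just outside the limit of 1 FPKM. At the depth estimated, 1 fragment in a transcript of 2 kb was worth 0.012 to 0.026 FPKM, so values in the hundredths rest on single fragments. Among the tested genes, 26 were at 1 FPKM or more in every library. The other 7 (Trim16, Trim24, Trim30b, Trim47, Trim62, Trim65 and Trim68) were under it in some libraries. Trim30b passed only through the LPS libraries, and Trim16, Trim24, Trim62, Trim65 and Trim68 only with the untreated ones. Part of the LPS difference of these genes was therefore built into the selection. Trim47 was under the limit only in some LPS-treated WT libraries and would have passed through either condition.

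The family's summed level was higher after LPS and its make-up turned over. The sum over all 66 genes was 345 ± 3.98 FPKM (SD, n = 3) in untreated WT and 303 ± 5.57 FPKM in untreated Pim1-/- BMDMs. After LPS it was 1381 ± 30.7 FPKM in WT and 1270 ± 44.7 FPKM in Pim1-/- BMDMs. In every untreated library the highest member was Trim28, the KAP1 corepressor that recruits heterochromatin enzymes to DNA, with 10.2% to 13.3% of the family's sum. In every LPS library it was Trim30a, with 23.6% to 25.7%. Trim30a, Trim30d and Trim21 together held 7.75% to 9.38% of the sum in untreated and 50.4% to 54% in LPS libraries. The family's share of all FPKM, which does not depend on how libraries were scaled, went from between 0.0631% and 0.0748% to between 0.161% and 0.178%.

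LPS moved most of the tested Trim genes in both genotypes, with interferon-type members rising and a mixed group falling. A gene was called when its difference in log2(FPKM + 1) exceeded 2-fold with p under 0.05 and a false discovery rate (FDR) under 0.1. In WT BMDMs 13 of the 33 were called higher and 7 lower, where 20.1% and 14.7% of all 10581 tested genes were called higher and lower. In Pim1-/- BMDMs 13 were called higher and 5 lower, against 14.6% and 10.4% of all genes. The median difference of the tested Trim genes was -0.12 in WT and -0.06 in Pim1-/- on the log2 scale, beside 0.00 and -0.01 over all genes. With the libraries brought to an equal total FPKM, the median of all genes was -0.67 in WT and -0.58 in Pim1-/-, and the Trim calls split into 12 higher and 14 lower in WT and 13 higher and 10 lower in Pim1-/- BMDMs. Quantile normalization gave 13 higher and 4 lower in WT. The shares of all genes called under these scalings are not given here. At FDR under 0.1 without a fold limit, 15 Trim genes were higher and 17 lower in WT, where 45.8% and 45.4% of all genes were, and 15 higher and 16 lower in Pim1-/- BMDMs, where 43.2% and 44% were. The untreated and LPS libraries did not overlap for 32 and 31 of the 33 Trim genes, where 90.4% and 83.8% of all genes did not. Over the 26 genes at 1 FPKM or more in every library, 12 were called higher and 2 lower in each genotype. The shares of all genes under this stricter filter are not given here, so this split is not particular to the family.

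The 13 genes that rose in WT BMDMs were also the 13 that rose in Pim1-/- BMDMs. They were Trim12a, Trim12c, Trim13, Trim14, Trim21, Trim25, Trim26, Trim30a, Trim30b, Trim30d, Trim34a, Trim36 and Trim56. All 11 tested genes of a 17-gene list of interferon and antiviral TRIM genes were among them. Their median rise on the log2 scale was 2.48 in WT and 2.72 in Pim1-/- BMDMs. The shares called higher over all tested genes were 20.1% in WT and 14.6% in Pim1-/- BMDMs. Trim30b passed the filter only through the LPS libraries, so its rise was partly built into the selection. The list was chosen with earlier results known, so it does not support its own direction. Of the 6 not tested, Trim6, Trim30e-ps1, Trim34b and Trim38 stayed under 0.4 FPKM, and Trim5 and Trim30c were not among the genes listed.

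**Figure D1:**
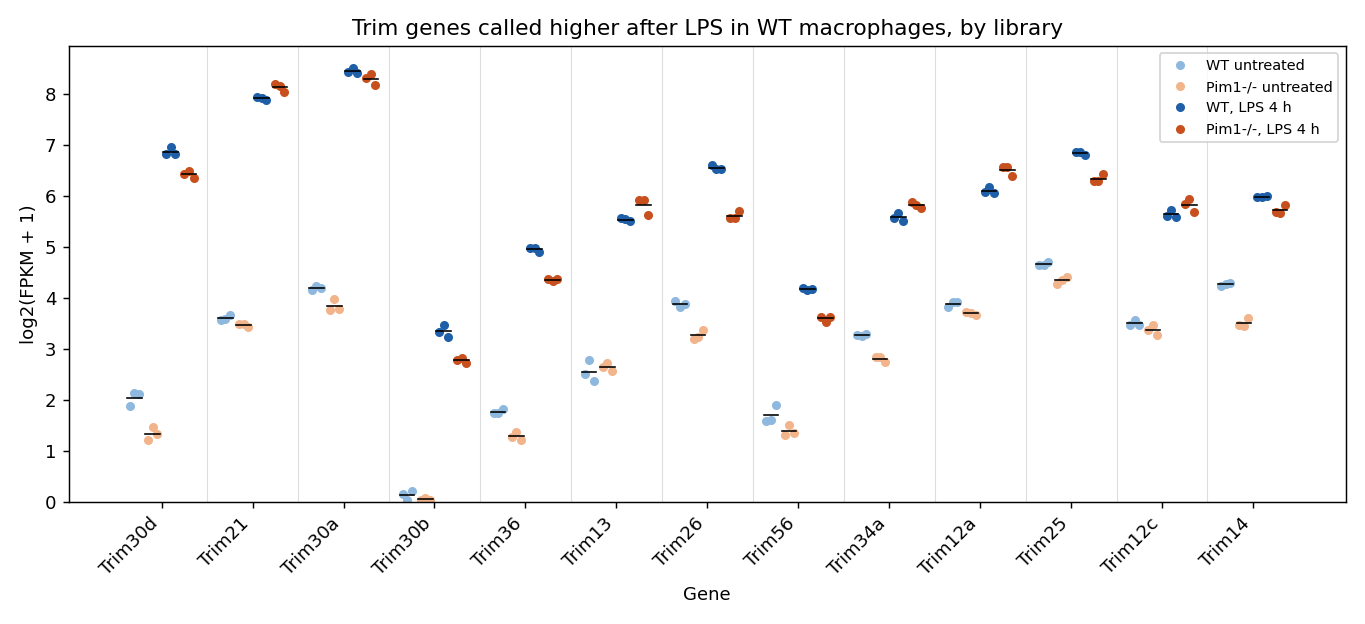
The 13 Trim genes called higher after LPS in WT BMDMs, each with its 12 libraries as points (horizontal axis: gene; vertical axis: log2(FPKM + 1); black line: group mean, n = 3). The LPS points of both genotypes lie above all untreated points for each gene, and Trim30a reaches the highest level.

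Of the risen genes, 6 lie on chromosome 7 within a run of 9 Trim genes that spans 317 kb (chr7:104218795-104535361, GRCm38.p6). The untested Trim34b lies between Trim12a and Trim12c. This cluster holds the PRY-SPRY members related to the restriction factor TRIM5, and its tested genes are Trim34a, Trim12a, Trim12c, Trim30b, Trim30a and Trim30d. Trim30a, which limits TLR signalling by promoting loss of the TAK1 adaptors TAB2 and TAB3, was at 16.9, 17.8 and 17.2 FPKM in the untreated WT libraries and at 342, 363 and 338 FPKM after LPS. In Pim1-/- libraries it was at 12.6, 14.6 and 12.7 FPKM untreated and at 314, 332 and 287 FPKM after LPS. The rise was 20.1-fold in WT (log2 difference 4.25, SE 0.06, FDR 1.3e-18) and 23.4-fold in Pim1-/- BMDMs (4.45, SE 0.06, FDR 1.0e-18). Every LPS library lay far above every untreated one, and within each condition the Pim1-/- libraries lay below the WT libraries in the values as deposited.

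Trim30d, its close paralogue, went from 2.66, 3.37 and 3.32 FPKM to 111, 123 and 112 FPKM in WT BMDMs, a 37-fold rise and the largest of the family on the log2(FPKM + 1) scale (4.82, SE 0.08, FDR 4.7e-18). In Pim1-/- BMDMs it went from 1.32, 1.75 and 1.52 FPKM to 84.9, 88.9 and 79.8 FPKM, a 55.3-fold rise. Trim30d thus stayed below WT in Pim1-/- libraries at both times without overlap. Trim30b, the third paralogue of this group, was almost silent before LPS, at 0.0288 to 0.15 FPKM in WT and 0.0253 to 0.058 FPKM in Pim1-/- libraries. It reached 8.35 to 10.1 FPKM in WT and 5.61 to 6.09 FPKM in Pim1-/- libraries after LPS, with no fold given because its untreated values rest on a few fragments. With a pseudocount of 0.1 its log2 difference in WT was larger than that of Trim30d.

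The other 3 genes of the cluster rose less steeply. Trim12a went from a mean of 13.8 ± 0.513 to 67.2 ± 2.80 FPKM in WT (SD, n = 3) and from 11.9 ± 0.236 to 89.9 ± 6.04 FPKM in Pim1-/- BMDMs. Trim12c went from 10.3 ± 0.463 to 48.7 ± 2.76 FPKM and from 9.33 ± 0.671 to 55.5 ± 5.09 FPKM. Trim34a went from 8.63 ± 0.127 to 46.9 ± 2.64 FPKM and from 5.99 ± 0.313 to 55.4 ± 2.14 FPKM. These 3 ended higher on average in Pim1-/- than in WT libraries, whereas the Trim30 genes ended lower, although the sign for Trim30a turned with quantile normalization and with an equal total FPKM. The transcripts of the cluster resemble one another, which limits how reads are divided among them: 39.8% of all 50-base stretches of the Trim34a transcripts also occurred in Trim34b, 10.6% of those of Trim12a in another Trim gene, and 7.2% and 6.53% of those of Trim30d and Trim30a. No source used here says how such reads were counted, so the split between these copies is uncertain.

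The sequences just upstream of these genes were read for the core of the interferon-stimulated response element, GAAA followed after any 2 bases by another GAAA, on either strand, which interferon regulatory factors and the ISGF3 complex recognize. It was present in the 250 bases before the start site of 2.98% of 32851 RefSeq promoters (GRCm38.p6). Of the 13 risen Trim genes, 11 had a promoter in that table and 4 of them held the core, Trim12c, Trim26, Trim30a and Trim30d, while none did among the 4 fallen and 9 other tested genes with a promoter. The gamma-activated site TTCNNNGAA, read on both strands and present in 7.02% of promoters, was in none of the promoters of tested Trim genes. Such a match is a description of letters and no evidence of binding. The 60 bases around each match are shown because they carry the only matches among the tested members, read 5′ to 3′ on the strand of the gene with the core in capitals, which here appears in its reverse orientation.
Trim30a (chr7:104465195-104465254, minus strand): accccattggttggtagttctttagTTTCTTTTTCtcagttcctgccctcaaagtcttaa
Trim30d (chr7:104507856-104507915, minus strand): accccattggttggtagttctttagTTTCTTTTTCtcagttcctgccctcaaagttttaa
Trim12c (chr7:104353350-104353409, minus strand): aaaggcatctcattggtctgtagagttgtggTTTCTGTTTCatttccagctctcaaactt
Trim26 (chr17:36836964-36837023, plus strand): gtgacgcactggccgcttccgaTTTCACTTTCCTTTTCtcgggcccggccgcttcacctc

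The Trim30a and Trim30d stretches were identical at 59 of 60 bases, with the core beginning at -36 and -41 relative to the start site. In Trim12c it began at -29. Trim26 held 2 overlapping matches, beginning at -160 and -154.

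Outside the cluster, Trim21, the cytosolic receptor for antibody-coated viruses, lies elsewhere on chromosome 7 (chr7:102557920-102565482, GRCm38.p6) and was second in level after LPS. It was at 10.8, 10.9 and 11.7 FPKM in untreated WT and at 242, 239.8 and 234 FPKM in LPS-treated WT libraries, a 21.4-fold rise (log2 difference 4.30, SE 0.05, FDR 8.9e-20). In Pim1-/- libraries it was at 10.2, 10.3 and 9.70 FPKM and at 290.3, 284 and 259 FPKM, a 27.7-fold rise. Unlike Trim30a, it was higher in all 3 Pim1-/- libraries than in any WT library after LPS. Trim25, the ligase that ubiquitinates the RNA sensor RIG-I, rose 4.66-fold in WT, from 24.3 ± 0.521 to 113 ± 2.23 FPKM, and 4.14-fold in Pim1-/- BMDMs, from 19.2 ± 0.927 to 79.5 ± 4.20 FPKM. Trim56, an antiviral ligase linked to STING, rose 7.57-fold in WT, from 2.25 ± 0.410 to 17.03 ± 0.268 FPKM, and 6.85-fold in Pim1-/- BMDMs, from 1.62 ± 0.192 to 11.1 ± 0.431 FPKM.

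Trim14, which lacks a RING domain and acts at the mitochondrial adaptor MAVS, had the smallest rise of the 13 in WT. It went from 18.2 ± 0.307 to 62.0 ± 0.234 FPKM in WT and from 10.3 ± 0.665 to 51.9 ± 3.23 FPKM in Pim1-/- BMDMs, and its call in WT was lost with an equal total FPKM (log2 difference 0.93). Trim26, a ligase that acts on the interferon pathway, is also shown in a heat map of the study and so had been picked there on these same libraries. It was at 14.2, 13.1 and 13.6 FPKM in untreated WT and 95.4, 91.4 and 90.6 FPKM in LPS-treated WT libraries. In Pim1-/- libraries it was at 8.14, 8.35 and 9.26 FPKM and at 46.3, 46.2 and 51.1 FPKM. It rose 6.78-fold in WT and 5.57-fold in Pim1-/- BMDMs. Both LPS groups lay above both untreated groups, and the WT libraries lay above the Pim1-/- libraries at each time.

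Of the risen genes, 2 belong to neither the interferon list nor the cluster. Trim13, an ER-anchored ligase, rose 9.27-fold in WT, from 4.87 ± 0.860 to 45.1 ± 0.988 FPKM, and 10.6-fold in Pim1-/- BMDMs, from 5.25 ± 0.314 to 55.6 ± 6.45 FPKM. Trim36, a microtubule-associated member, rose 12.4-fold in WT, from 2.41 ± 0.106 to 29.9 ± 0.948 FPKM, and 13.5-fold in Pim1-/- BMDMs, from 1.44 ± 0.142 to 19.4 ± 0.271 FPKM. The other 6 genes of a microtubule and muscle list were below the test limit.

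LPS lowered 7 Trim genes in WT BMDMs, namely Trim8, Trim16, Trim24, Trim37, Trim47, Trim62 and Trim65. Of these, Trim8, Trim16, Trim47 and Trim65 were also called lower in Pim1-/- BMDMs, where Trim24 (-0.73), Trim37 (-0.87) and Trim62 (-0.80) fell by less than 2-fold on the log2(FPKM + 1) scale at FDR under 0.1. The call of Trim62 in WT (-1.03) was lost without untreated WT library 3 (-1.0) and without LPS-treated WT library 1 (-0.99). With quantile normalization Trim24, Trim37 and Trim62 were no longer called in WT, at -0.71, -0.77 and -0.66. Of 13 other Trim genes listed as regulators of pattern-recognition signalling, 11 were tested, and 1 was called higher (Trim13) and 3 lower in each genotype, Trim8, Trim62 and Trim65 in WT and Trim8, Trim59 and Trim65 in Pim1-/- BMDMs. The shares of all tested genes called higher and lower were 20.1% and 14.7% in WT and 14.6% and 10.4% in Pim1-/- BMDMs. Their median difference was -0.69 in WT and -0.42 in Pim1-/- BMDMs.

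The steepest fall on the log2(FPKM + 1) scale was that of Trim47, a RING ligase. It was at 17.97, 17.3 and 17.95 FPKM in untreated WT and at 0.941, 0.961 and 1.41 FPKM in LPS-treated WT libraries (log2 difference -3.16, SE 0.08, FDR 1.5e-15). In Pim1-/- libraries it was at 18.4, 16.6 and 19.3 FPKM and at 1.77, 1.72 and 2.002 FPKM. The untreated groups overlapped, and after LPS every Pim1-/- library lay above every WT library. Trim65 lies close to Trim47 (chr11:116105750-116131413 spans both, 25.7 kb). This ligase, which ubiquitinates the RNA sensor MDA5, also fell, from 3.62 ± 0.172 to 0.385 ± 0.0576 FPKM in WT and from 2.25 ± 0.301 to 0.216 ± 0.0365 FPKM in Pim1-/- BMDMs.

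Trim16, a RING-less member known for its part in the autophagy of damaged endosomes and lysosomes, went from 6.49, 5.99 and 6.00 FPKM to 0.254, 0.217 and 0.271 FPKM in WT BMDMs (log2 difference -2.52, SE 0.05, FDR 2.8e-16). In Pim1-/- BMDMs it went from 4.19, 4.37 and 4.29 FPKM to 0.639, 0.566 and 0.73 FPKM. It was therefore lower in Pim1-/- than in WT libraries before LPS and higher after it, without overlap at either time. Trim8, which promotes NF-kB activation through TAK1, was the second highest member in untreated WT BMDMs and fell from 31.8 ± 0.597 to 9.83 ± 0.664 FPKM there, and from 23.0 ± 1.59 to 7.58 ± 0.543 FPKM in Pim1-/- BMDMs.

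**Figure D2:**
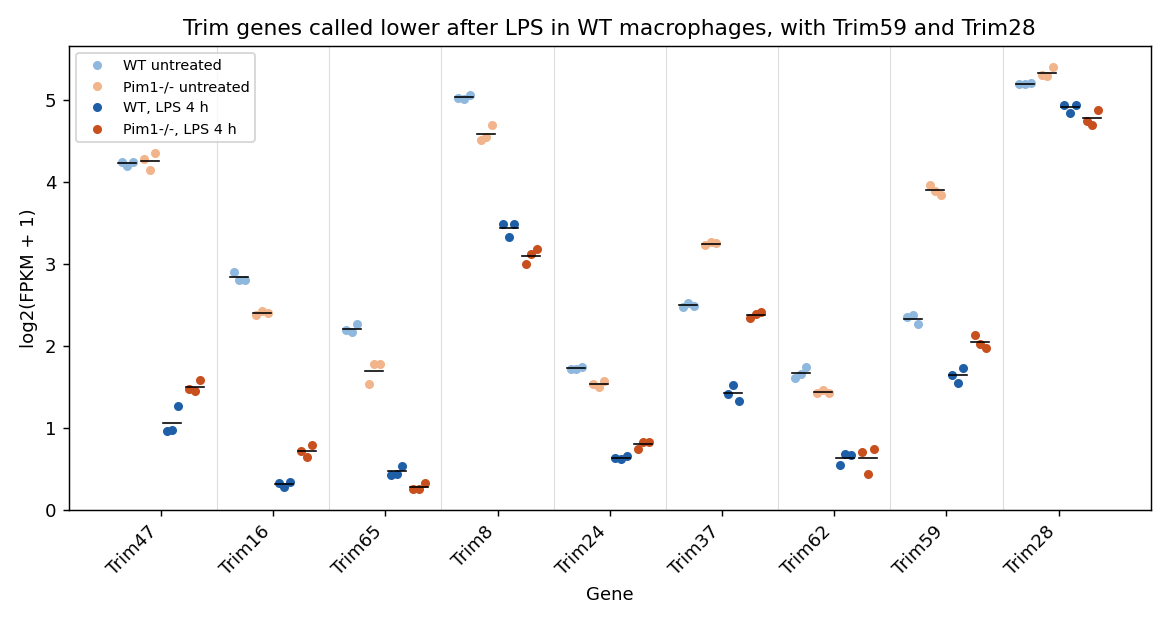
The 7 Trim genes called lower after LPS in WT BMDMs, followed by Trim59 and Trim28, with each library as a point (horizontal axis: gene; vertical axis: log2(FPKM + 1); black line: group mean, n = 3). Trim37 and Trim59 stand higher in Pim1-/- than in WT libraries at both times, and Trim59 most so before LPS.

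The 13 remaining tested genes were called in neither direction in WT, with differences from -0.81 to 0.44 on the log2 scale, and only Trim59 among them was called in Pim1-/- BMDMs. Of the TIF1 genes, Trim28 was at 35.6 ± 0.190 FPKM in untreated and 29.0 ± 1.15 FPKM in LPS-treated WT BMDMs, and at 39.3 ± 1.64 and 26.4 ± 1.80 FPKM in Pim1-/- BMDMs. With an equal total FPKM it was called lower after LPS in both genotypes (-1.07 and -1.21). Trim33, a regulator of TGF-beta signalling, was at 4.49 ± 0.107 and 4.27 ± 0.333 FPKM in WT (FDR 0.32) and at 4.06 ± 0.0693 and 3.59 ± 0.270 FPKM in Pim1-/- BMDMs (FDR 0.031). Trim24, the third tested member of the trio, was at 2.31 ± 0.0257 and 0.553 ± 0.0255 FPKM in WT and at 1.90 ± 0.0761 and 0.747 ± 0.0591 FPKM in Pim1-/- BMDMs. The NHL-repeat genes Trim3 and Trim32 differed in the opposite direction from each other after LPS in WT, at 0.44 and -0.75, and the sign of Trim3 turned with an equal total FPKM (-0.32).

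**Figure D3:**
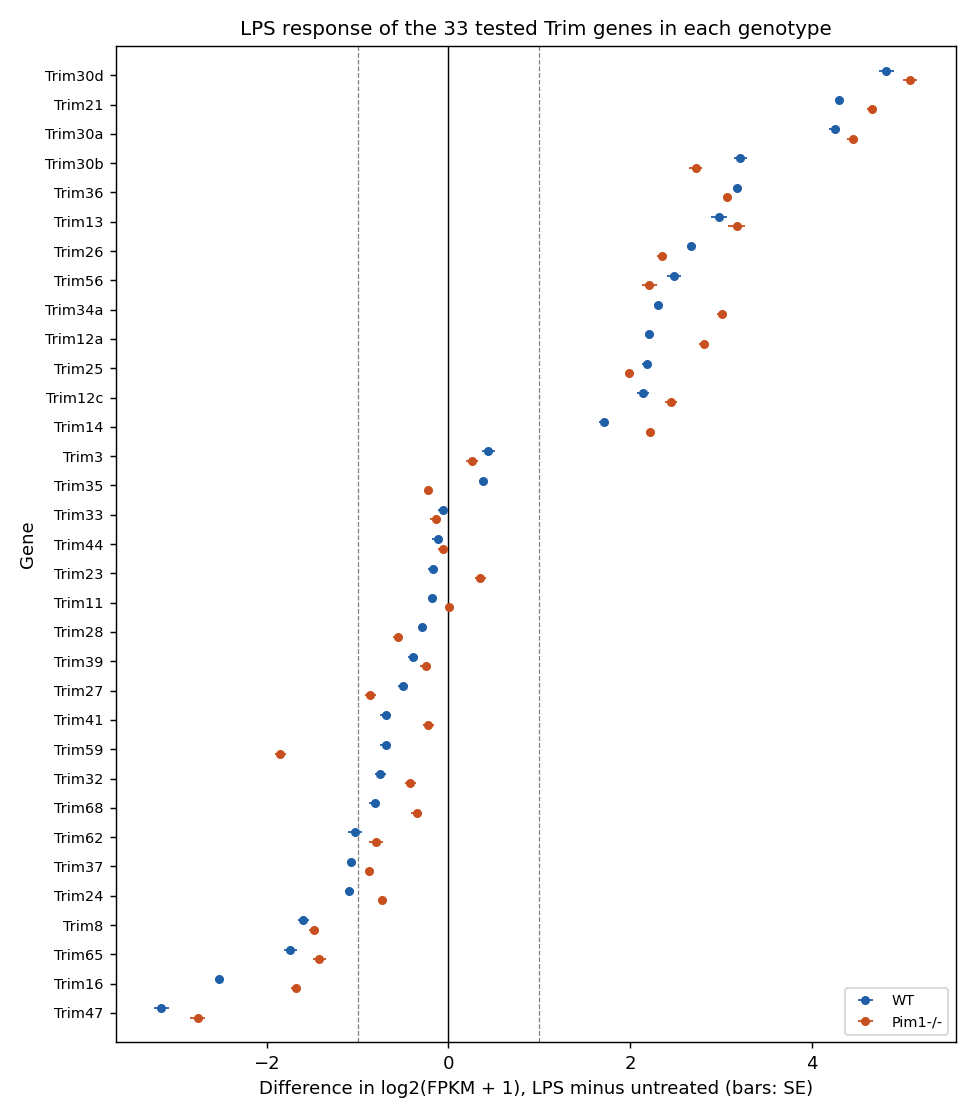
Difference in log2(FPKM + 1) between LPS-treated and untreated BMDMs for the 33 tested Trim genes (vertical axis), with WT in blue, Pim1-/- in orange, bars for the SE and dashed lines at 2-fold. The same 13 genes lie past the right dashed line in both genotypes, from 1.71 to 4.82 in WT.

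Between genotypes, most Trim genes stood somewhat lower in untreated Pim1-/- than in untreated WT BMDMs, by less than 2-fold on the log2(FPKM + 1) scale. In mean FPKM, Trim30d was at 49% of the WT level, and Trim30b rests on a few fragments there. Only Trim59 was called, as higher, and none as lower, where 4.4% and 3.37% of all tested genes were called higher and lower. At FDR under 0.1 without a fold limit, 5 Trim genes were higher and 24 lower, where 34.6% and 44.2% of all genes were. The libraries of the genotypes did not overlap for 28 of the 33, where 78.4% of all genes did not. The median difference was -0.23, beside -0.05 over all genes, and differences ran from -0.76 (Trim14) to 1.57 (Trim59). Of the 11 tested interferon and antiviral genes, 10 were lower and none higher at FDR under 0.1, with a median of -0.32. The largest of these were Trim14 (-0.76, SE 0.05, FDR 2.4e-09), Trim30d (-0.70, SE 0.08, FDR 6.0e-07) and Trim26 (-0.61, SE 0.05, FDR 6.9e-08), and Trim30b (-0.08, FDR 0.28) did not pass. Trim12c passed narrowly (FDR 0.098), with overlapping groups. It did not pass with quantile normalization (FDR 0.14) or with an equal total FPKM (FDR 0.28). With an equal total FPKM, Trim21 did not pass either (FDR 0.13).

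After LPS no Trim gene was called between the genotypes, where 3.51% of all tested genes were called higher and 5.15% lower in Pim1-/- BMDMs. At FDR under 0.1, 12 were higher and 19 lower, beside 37.6% and 43.4% of all genes, and the median was -0.16 beside -0.03. The libraries did not overlap for 28 of the 33, where 77.5% of all genes did not. The 13 LPS-induced genes divided. Higher in Pim1-/- BMDMs were Trim12a (0.41), Trim12c (0.18), Trim13 (0.29), Trim21 (0.22) and Trim34a (0.24). Lower were Trim14 (-0.25), Trim25 (-0.51), Trim26 (-0.94), Trim30a (-0.16), Trim30b (-0.56), Trim30d (-0.44), Trim36 (-0.60) and Trim56 (-0.58). The signs of Trim14 and Trim30a depended on scaling, since quantile normalization gave 0.01 and 0.10, and an equal total FPKM gave -0.05 and 0.04. Those of the other 11 did not turn under either, although their sizes moved. Of the lower genes, Trim26 came closest to the 2-fold limit in the values as deposited, at 51.8% of the WT level (-0.94, SE 0.05, FDR 3.8e-10). It was at -0.61 with quantile normalization and at -0.73 with an equal total FPKM. In the same order, Trim25 was at -0.22 and -0.30, and Trim21 at 0.48 and 0.42. Among the genes that LPS did not call in WT, the NHL-repeat gene Trim3 was lower in Pim1-/- BMDMs, at 9.75 ± 0.735 against 16.97 ± 0.690 FPKM (-0.74, SE 0.07, FDR 9.4e-08). Trim23, which carries an ARF-type GTPase domain, was higher, at 4.43 ± 0.249 against 2.33 ± 0.138 FPKM (0.70, SE 0.06, FDR 5.2e-08).

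**Figure D4:**
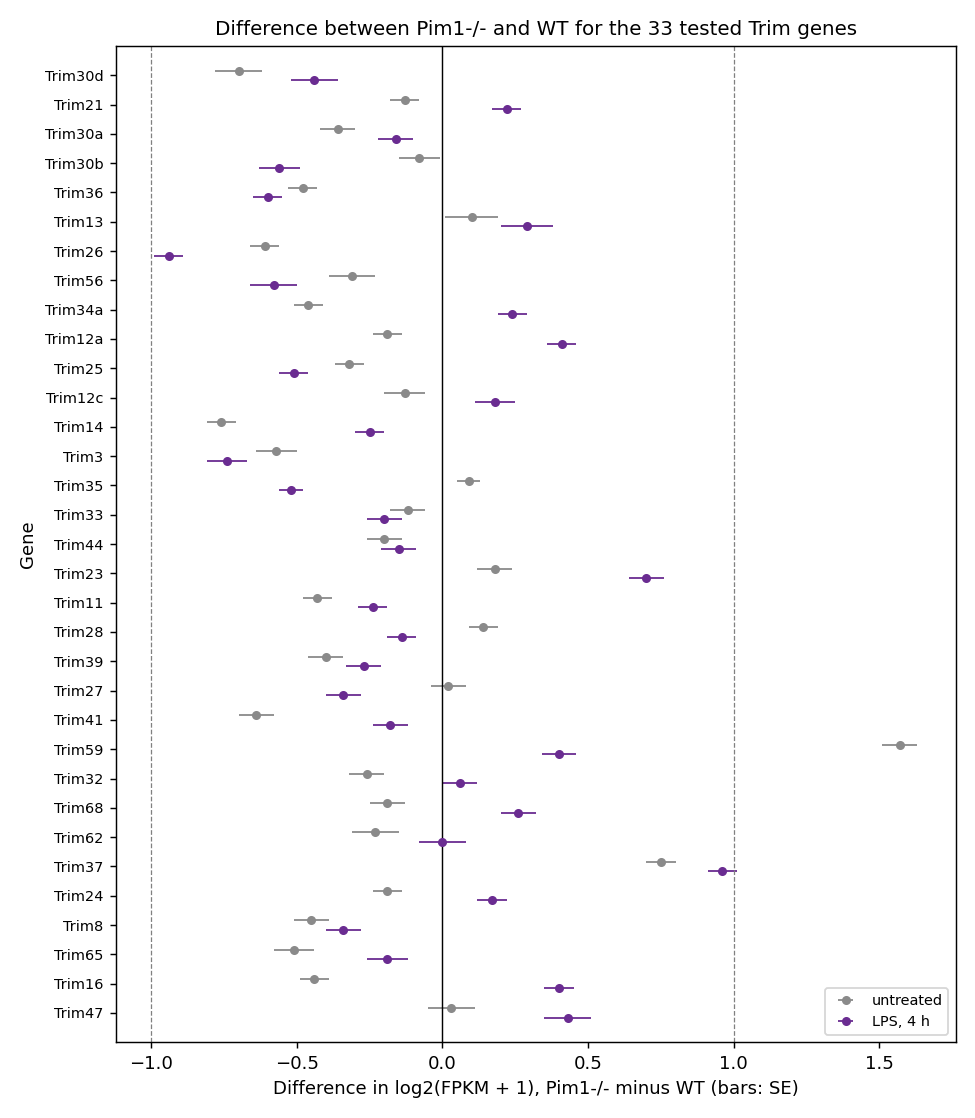
Difference in log2(FPKM + 1) between Pim1-/- and WT BMDMs for the 33 tested Trim genes (vertical axis), untreated in grey and after LPS in purple, with bars for the SE and dashed lines at 2-fold. Trim59 before LPS (1.57) is the only point past a dashed line, and Trim37 and Trim26 after LPS lie just inside, at 0.96 and -0.94.

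On the log2(FPKM + 1) scale, the size of the LPS response itself differed between the genotypes by more than 2-fold for Trim59 alone. Its interaction was -1.16 (SE 0.09, FDR 2.6e-08). Of all tested genes, 2.24% had a called difference upwards and 4.43% downwards. At FDR under 0.1, 18 Trim genes had a higher and 8 a lower LPS difference in Pim1-/- than in WT BMDMs, where 32.7% and 35.8% of all genes did, with a median of 0.19 beside -0.00. Trim34a (0.70, SE 0.07, FDR 6.8e-07), Trim12a (0.60, SE 0.07, FDR 3.9e-06) and Trim14 (0.51, SE 0.07, FDR 1.8e-05) rose further in Pim1-/- than in WT BMDMs. Each of these started lower in untreated Pim1-/- libraries. Trim26 rose less far in the values as deposited (-0.33, SE 0.08, FDR 0.0018), but quantile normalization turned this to 0.07 (FDR 0.46) and an equal total FPKM gave -0.16 (FDR 0.14). Trim35, a ligase without a called change, stood higher after LPS in WT (0.38) and lower in Pim1-/- BMDMs (-0.22), with a difference of -0.60 (SE 0.06, FDR 3.3e-07), although its rise in WT turned to -0.19 with quantile normalization and to -0.40 with an equal total FPKM. For Trim16 the difference was 0.84 (SE 0.08, FDR 2.2e-07), and it passed 2-fold with a pseudocount of 0.1 (1.61).

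Trim59 and Trim37 were the members with the largest differences upwards in untreated Pim1-/- BMDMs, and after LPS Trim37 had the largest on the log2(FPKM + 1) scale, while Trim16 had the larger ratio of mean FPKM (2.61). Trim59, a membrane-anchored ligase (chr3:69035292-69044742, GRCm38.p6), was at 4.10, 4.17 and 3.82 FPKM in untreated WT and at 14.6, 13.8 and 13.3 FPKM in untreated Pim1-/- libraries, 3.45 times the WT level (log2 difference 1.57, SE 0.06, FDR 4.9e-12). After LPS it was at 2.12, 1.92 and 2.33 FPKM in WT and at 3.40, 3.06 and 2.92 FPKM in Pim1-/- libraries (0.40, SE 0.06, FDR 2.8e-05). The Pim1-/- libraries lay above the WT libraries at both times, and the gap narrowed with LPS. Trim37, a ligase of centrosomes, peroxisomes and chromatin (chr11:87126790-87250874), was at 4.54, 4.75 and 4.62 FPKM in untreated WT and at 8.36, 8.61 and 8.50 FPKM in untreated Pim1-/- libraries (0.75, SE 0.05, FDR 6.2e-09). After LPS it was at 1.67, 1.88 and 1.52 FPKM in WT and at 4.08, 4.24 and 4.31 FPKM in Pim1-/- libraries (0.96, SE 0.05, FDR 3.0e-10). That is 2.49 times the WT level in FPKM but just under 2-fold after 1 FPKM is added, and it was called without LPS-treated WT library 2 (1.01), with a pseudocount of 0.1 (1.27) and with an equal total FPKM (1.03).

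Top2a, Mki67 and Cenpe, known from dividing cells and chosen after their values were seen, likewise had higher means before LPS in Pim1-/- than in WT BMDMs, at 66.9 against 2.96, 43.5 against 2.90 and 8.41 against 0.628 FPKM. After LPS Top2a (34.1 against 1.76 FPKM) and Cenpe (9.68 against 1.49 FPKM) were still higher, whereas Mki67 was not (26.2 against 28.6 FPKM). With LPS, Top2a fell at FDR under 0.1 in WT (-0.52) and Pim1-/- BMDMs (-0.95), as Trim59 and Trim37 did. Mki67 fell in Pim1-/- (-0.71) but rose in WT BMDMs (2.92). Cenpe rose in WT (0.61) and slightly in Pim1-/- BMDMs (0.18). The part of cell division in the values of the pair was not tested.

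Family members that carry other names were also raised by LPS, with 3 of 5 tested and all 3 called higher in both genotypes. Of all tested genes, 20.1% were called higher in WT and 14.6% in Pim1-/- BMDMs. Mefv passed the filter only through the LPS libraries, so its LPS difference was built into the selection. Pml, the organizer of PML nuclear bodies, rose from 5.57 ± 0.102 to 60.95 ± 0.376 FPKM in WT and from 4.11 ± 0.225 to 31.9 ± 2.92 FPKM in Pim1-/- BMDMs, and after LPS it was lower in the latter by less than 2-fold (-0.92, SE 0.06, FDR 8.2e-10). Mid1, a microtubule-binding ligase, rose from 1.14 ± 0.0837 to 13.8 ± 0.201 FPKM in WT and from 1.19 ± 0.0898 to 6.37 ± 0.509 FPKM in Pim1-/- BMDMs. After LPS it was called lower in the latter (-1.01, SE 0.06, FDR 4.0e-10), just past the 2-fold limit in the values as deposited. Mefv, which encodes the inflammasome sensor pyrin, was at most 0.102 FPKM in untreated libraries and reached 7.99 ± 0.503 FPKM in WT but 1.35 ± 0.0453 FPKM in Pim1-/- BMDMs after LPS (-1.93, SE 0.05, FDR 8.3e-14). The LPS libraries of the genotypes did not overlap for any of these 3, as for 77.5% of all tested genes. Among all tested genes, 5.15% were called lower in Pim1-/- BMDMs after LPS. The other 2 genes of this list, Mid2 and Cmya5, were below the test limit.

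All 23 listed partners and substrates of TRIM ligases were tested. After LPS 10 were called higher and 1 lower in WT BMDMs, where 20.1% and 14.7% of all tested genes were, and 10 higher and 2 lower in Pim1-/- BMDMs, where 14.6% and 10.4% were. Ddx58, which encodes RIG-I, the substrate of Trim25, averaged 7.74 ± 0.253 FPKM in untreated and 175 ± 0.984 FPKM in LPS-treated WT BMDMs, and 3.73 ± 0.242 and 132 ± 3.43 FPKM in Pim1-/- BMDMs. Mavs, the adaptor bound by Trim14, was instead lower after LPS, at 18.1 ± 0.776 and 4.90 ± 0.368 FPKM in WT and 12.0 ± 0.914 and 5.30 ± 0.0811 FPKM in Pim1-/- BMDMs. Tab2, a target of Trim30a, averaged 37.97 and 145.5 FPKM in WT and 21.4 and 75.3 FPKM in Pim1-/- BMDMs. Between genotypes, Irf7, the interferon regulatory factor that amplifies type I interferon, was called lower in Pim1-/- BMDMs both untreated (-1.71, SE 0.08, FDR 4.3e-11) and after LPS (-1.05, SE 0.08, FDR 1.3e-08). The LPS call lay just past the 2-fold limit in the values as deposited, and other scalings of Irf7 are not given here. Cbx5, the heterochromatin protein HP1-alpha recruited by Trim28, was called higher in untreated Pim1-/- BMDMs (1.75, SE 0.05, FDR 1.4e-13), and the autophagy receptor Sqstm1 was called higher after LPS (1.06, SE 0.04, FDR 3.3e-12).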

How the data were processed

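RNA of 12 BMDM libraries (TruSeq Stranded mRNA, 3 libraries in each of 4 groups) had been processed by the submitters with bcl2fastq 2.20.0.422, cutadapt 1.18, TopHat2 2.0.13 and Cuffdiff 2.2.1. The labels give the mouse build mm10, whereas the methods of the study name a rat build. Mouse symbols were used here. The authors deposited 1 FPKM value per gene and library, which had not been logged, and the scaling between libraries is not given in the sources used here. Fragment totals were estimated from the spacing of values under 0.2 FPKM with GENCODE transcript lengths, so depth is approximate.

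Genes that reached 1 FPKM in 3 or more libraries were fitted as log2(FPKM + 1) with limma 3.58.1 (R 4.3.3), with 4 group means, a mean-variance trend and no block, and p-values were adjusted by Benjamini-Hochberg over all 10581 genes. Fold changes on this scale understate those of low genes. The threshold values were those of the study's methods, which used Cuffdiff, and were applied in both directions. The fold limit was set here on log2(FPKM + 1), which is stricter for low genes than a ratio of FPKM. The ratios given as folds are of mean FPKM. The fit was tested on simulated data. Members and gene lists were chosen with earlier results of these data known, so no set test was run and no list supports its own direction. Named with values were Trim genes called between genotypes or in the interaction, the 5 largest rises and falls with LPS in WT, the interferon list, the TIF1 genes, the 5 highest members, Trim26, the gene with the largest genotype difference after LPS and genes under other symbols. Others were named after their values were seen. All other members are in the counts and plots. Alternatives were another pseudocount, other filters, other scalings, a replicate block, no trend, fits of only the groups compared, FDR under 0.05 without a fold limit and leaving out each library. Positions, promoters and transcripts came from RefSeq (GRCm38.p6) and GENCODE, and all 66 symbols matched a RefSeq gene, but 24 of the 33 tested ones a promoter.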

Additional observations from a re-analysis of the deposited data

Results flagged for a closer look

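The LPS response of Trim59 differed between the genotypes, by an interaction of -1.16 on the log2(FPKM + 1) scale (SE 0.09, FDR 2.6e-08, limma). Trim59 went from 4.03 ± 0.188 to 2.12 ± 0.205 FPKM in WT (SD, n = 3) and from 13.9 ± 0.658 to 3.13 ± 0.245 FPKM in Pim1-/- BMDMs, a fall to 52.6% and to 22.5% of the untreated level. The interaction was between -1.21 and -1.12 when each library was left out in turn. No other tested Trim gene had a called interaction.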

How the results depend on the processing

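The count of Trim genes called stayed at 1 (untreated genotypes) and 1 (interaction) without any 1 library, at 18 for LPS in Pim1-/- BMDMs, ranged from 19 to 20 for LPS in WT and from 0 to 1 between the LPS-treated genotypes. The medians ranged from -0.26 to -0.20 (untreated genotypes), -0.20 to -0.14 (LPS-treated genotypes), -0.14 to -0.09 (LPS in WT), -0.11 to -0.02 (LPS in Pim1-/-) and 0.17 to 0.23 (interaction). With FDR under 0.05 and no fold limit the counts were 26, 31, 31, 31 and 24 in the same order. The shares of all genes at that limit are not given, so these counts describe the threshold and nothing particular to the family. A pseudocount of 0.1 gave 2 calls between the LPS-treated genotypes (Trim16 and Trim37) and 2 interactions (Trim16 and Trim59), and an untreated median of -0.33. Scaling to an equal total FPKM, chosen after seeing the data, gave 1 call between the LPS-treated genotypes (Trim37) and medians of 0.04 (LPS-treated genotypes), -0.74 (LPS in WT), -0.66 (LPS in Pim1-/-) and 0.33 (interaction). With no filter, which adds 25 genes near 0, the medians were -0.04, -0.01, -0.00, 0.00 and 0.02 in that order. A filter of 5 FPKM, which leaves 26 Trim genes, gave -0.28 untreated, 1.08 for LPS in WT and 1.13 for LPS in Pim1-/-. Quantile normalization gave -0.11 between the LPS-treated genotypes and -0.02 for LPS in Pim1-/-. The cause of these shifts was not tested except where fewer or more genes entered. The replicate block changed no count (1, 0, 20, 18 and 1) but moved some FDR values, as for Trim12c between untreated genotypes (0.098 to 0.0074, limma). Deviations of same-numbered libraries correlated at -0.07 to 0.34, and 13 of 24 checks were best at the own number. The count to be met without any shared replicate effect is not given here. The libraries were not treated as paired because not every correlation passed 0.1. Whether libraries of the same number shared a batch was not tested. Depth limits the genes under about 0.1 FPKM, which rest on a few fragments.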
